A study of Drosophila melanogaster with 3 samples.

Results

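Oxidative phosphorylation subunit genes were examined for binding of the chromatin protein Row near their transcription start sites (TSSs) in Drosophila melanogaster embryos. Members were the protein-coding genes whose symbol starts with ND-, Sdh, UQCR, COX followed by a digit, or ATPsyn. This gave 88 genes of 13968 protein-coding genes in all. Symbols that end in L or T, with or without a final number, were set apart as paralogs, which left 63 core members and 25 paralogs. The data were peak lists from chromatin immunoprecipitation and sequencing (ChIP-seq) of whole embryos aged 0 to 24 h from 1 transgenic strain, row-GFP, that expresses Row fused to enhanced green fluorescent protein (row-eGFP). The precipitation used an antibody against the fluorescent tag. There was 1 group of 3 biological replicates, with no second genotype, treatment or stage, so conditions cannot be compared. The labels do not name the promoter that drives the fusion gene, and an input or untagged control was not analysed here.

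In oxidative phosphorylation, complexes I to IV of the inner mitochondrial membrane pass electrons from NADH and succinate to oxygen, complexes I, III and IV pump protons, and complex V, the ATP synthase, uses the proton gradient to make ATP. Apart from complex II, these complexes combine a few subunits encoded in mitochondrial DNA with many encoded in the nucleus, and the genes described here are nuclear. In Drosophila many of these genes have a second copy expressed in the testis. Row, short for relative of woc, has zinc fingers and works together with WOC and with HP1c, a heterochromatin protein family member that is found at active genes.

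The DNA under 1 strong core peak of each complex is shown first. It is the strongest of complexes II to V, and for complex I the strongest after that of ND-MWFE. Each window holds the 60 bases on both sides of the summit in assembly dm6, on the gene's strand, read from the RefSeq FASTA of that assembly. Capitals mark matches on either strand to any of 10 promoter motifs, which are spelled out with their counts further on. The ND-51 window is chr2L:6062795-6062915 on the minus strand, SdhC chr3R:11210081-11210201 on the minus strand, UQCR-C2 chr3L:16584186-16584306 on the plus strand, COX7B chr3L:17425291-17425411 on the plus strand, and ATPsyngamma chr3R:29748881-29749001 on the minus strand.
ND-51: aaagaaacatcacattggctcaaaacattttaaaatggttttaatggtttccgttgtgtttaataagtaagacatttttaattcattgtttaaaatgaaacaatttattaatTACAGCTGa
SdhC: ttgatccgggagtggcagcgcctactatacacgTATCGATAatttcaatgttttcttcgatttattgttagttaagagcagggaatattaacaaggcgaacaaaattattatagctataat
UQCR-C2: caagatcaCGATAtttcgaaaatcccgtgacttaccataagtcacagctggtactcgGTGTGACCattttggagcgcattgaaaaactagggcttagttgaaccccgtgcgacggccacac
COX7B: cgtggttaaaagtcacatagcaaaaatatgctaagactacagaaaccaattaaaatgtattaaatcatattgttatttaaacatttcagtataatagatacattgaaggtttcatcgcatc
ATPsyngamma: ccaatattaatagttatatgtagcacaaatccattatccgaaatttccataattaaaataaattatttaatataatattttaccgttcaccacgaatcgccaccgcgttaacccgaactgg
The GC content of the windows was 24.0% in ND-51, 27.3% in COX7B, 31.4% in ATPsyngamma, 34.7% in SdhC and 48.8% in UQCR-C2. No motif was common to all of them. ND-51 held CAGCNNTA, SdhC held TATCGATA, UQCR-C2 held CGATA and GGTCACAC, and COX7B and ATPsyngamma held none of the 10.

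Peaks came as lists filtered by the irreproducible discovery rate (IDR), an estimate of how many of the kept peaks would fail to be found again. The conservative list, which pairs replicates 1 and 2 at an IDR of 0.01, held 10483 peaks, and the replicates' own lists held 10959, 8567 and 7635. The files give no read numbers, so the depth is unknown, and the length of a list is the only measure related to it. A gene was called bound where a summit, the highest point of a peak, lay within 500 bp of any of its protein-coding TSSs. A peak's strength is given as its signal value, the enrichment as the authors' caller wrote it, and values were compared only within a list. Whole embryos hold many cell types and ages, so a strong peak in few cells and a weak one in many cannot be told apart.

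Row summits lay at 35 of the 63 core promoters in the conservative list (55.6%), against 36.4% of all protein-coding genes. The core members bound numbered 43, 32 and 36 in replicates 1, 2 and 3, a share of 58.7% ± 8.84 (SD, n = 3 replicates). The share of all protein-coding genes was 35.0% ± 4.57 over the same replicates. The core share was the higher of both in each replicate, at 68.3%, 50.8% and 57.1% of core members and 40.3%, 32% and 32.8% of all genes. In all 3 replicates 29 core members were bound (46.0%), against 28.5% of all genes. With windows of 250 and 1000 bp around the starts, 32 and 37 core members were bound, against 30.7% and 40.7% of all genes. At IDRs of 0.001 and 0.05 they were 27 and 43, against 29.2% and 41%, and where the peak interval stood in for its summit 36, against 38.2%. No test was run on these shares, because the members were chosen as a list and the study has 1 group.

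The paralogs stood on the other side of the background, with 3 of 25 bound (12%) in the conservative list and 2, 3 and 3 in the replicates (10.7% ± 2.31, SD, n = 3). ND-MNLL had a signal value of 733, with its summit 93 bp upstream of its start. Its symbol ends in L, but it encodes an accessory subunit of complex I and is no copy of another member. Counted with the core, it made 36 of 64 core members bound and left 2 of 24 paralogs. UQCR-6.4L had a signal value of 213 at 433 bp upstream, and its peak was listed in all 3 replicates. COX7AL had a signal value of 179 and was listed in replicates 2 and 3. COX7AL2 was in no thresholded list, although the ranked list of replicates 1 and 2 holds a peak 323 bp from its start that reaches the IDR threshold.

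Of the 5 complexes, complex IV, cytochrome c oxidase, had the highest share in the conservative list, with 7 of 8 members bound (87.5%). Complex V had 6 of 11 (54.5%), complex I 17 of 33 (51.5%), complex III 3 of 6 (50%) and complex II 2 of 5 (40%). The share of all protein-coding genes was 36.4%, so complex II was near it. Over the replicates complex IV had 75% ± 12.5, complex V 66.7% ± 5.25, complex III 55.6% ± 9.62, complex I 54.5% ± 15.7 and complex II 46.7% ± 11.5 (SD, n = 3 each). The replicate range of complex IV, 62.5% to 87.5%, overlapped those of complexes I, III and V. In replicates 1, 2 and 3 complex IV had 75%, 62.5% and 87.5%. Complex I had 72.7%, 45.5% and 45.5%, complex III 50%, 50% and 66.7%, and complex V 63.6%, 63.6% and 72.7%. All protein-coding genes had 40.3%, 32% and 32.8%. Complex IV was thus above complexes I and III in each replicate, and below complex V in replicate 2. Complexes III and IV have few members, and the order was not tested. An opposite-strand TSS lay within 500 bp upstream for 6 of the 8 complex IV members (75%), against 27.3% of all genes. This share was 63.6% in complex V, 57.6% in complex I, 33.3% in complex III and 20% in complex II. Of all genes with such a neighbour 66% were bound. With each summit given to the nearest start, complex IV had 5 of 8 bound (62.5%), against 27.6% of all genes. Whether the arrangement accounts for the order was not tested. Complex II ranged from 40% to 60%, below the complex IV range, and with 5 members 1 gene moves its share by 20 percentage points. In the list that pairs replicates 1 and 3 for the IDR, complex III had 5 of 6 bound, against 37.5% of all genes. That list is described as derived from the alignments of all 3 replicates, so only its pairing omits replicate 2.

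**Figure D1:**
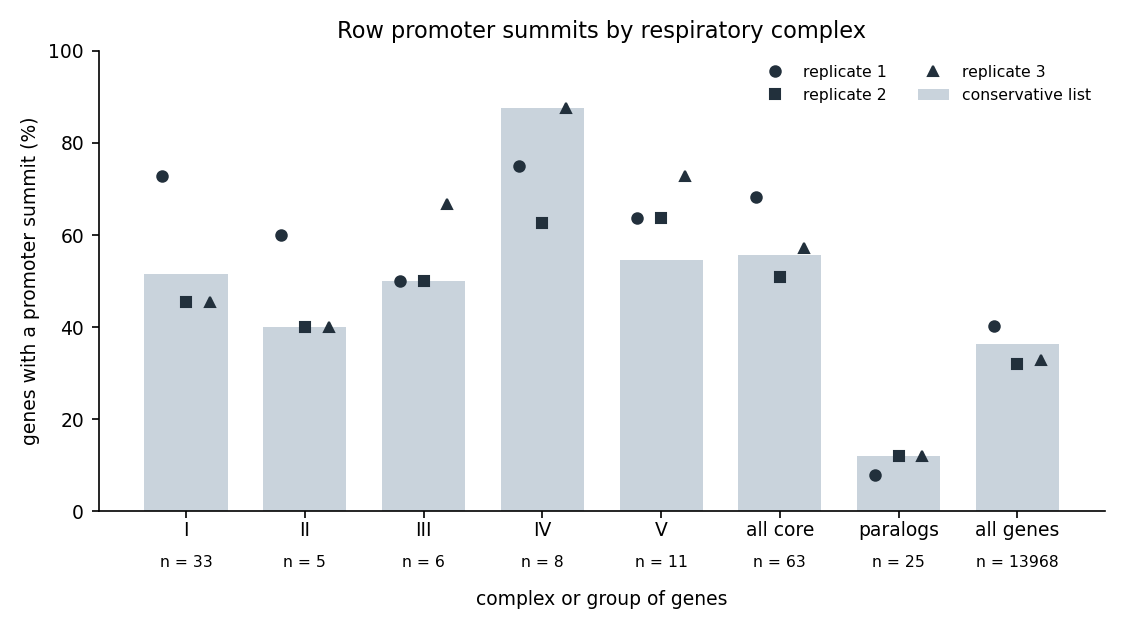
Share of genes (%, vertical axis) with a Row summit within 500 bp of a TSS, for complexes I to V, all core members, the paralogs and all protein-coding genes (n under each label). Bars give the conservative list and points the lists of replicates 1, 2 and 3. Core members lie above all genes and paralogs below them in each replicate, with complex IV at 87.5% in the conservative list.

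Complex I takes electrons from NADH. Its catalytic core in the nuclear genome is formed by 7 members, ND-75, ND-51, ND-24, ND-49, ND-30, ND-23 and ND-20, which carry the flavin and iron-sulfur centres or hold them in place. Of these, 5 were bound in the conservative list (71.4%), and of the other 26 members, most of them accessory subunits, 12 were (46.2%), beside 36.4% of all genes. In replicates 1, 2 and 3 these counts were 6, 5 and 6 of the 7 and 18, 10 and 9 of the 26, so the accessory share depended on the replicate. The flavin-binding subunit ND-51 had a signal value of 1467 in the conservative list. Its replicate values were 492, 520 and 451. Its neighbour in the same NADH-oxidising module, ND-24, had 1300, with replicate values of 423, 430 and 443. Each list has its own scale of values, and both genes were bound in all of them. The iron-sulfur subunits ND-20 and ND-23 followed with 696 and 627. ND-30 had 437, but its summit lay 362 bp upstream and only 51 bp from the start of CG15812.

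The remaining catalytic subunits were not bound in the conservative list. ND-49, on chromosome 4, was bound in replicates 1 and 3, with signal values of 123 and 262. In replicate 2 the ranked list, which holds peaks before the threshold, gave it a value of 11.9. The ranked list of replicates 1 and 2 held its peak at 570, but with an IDR of 0.695, far above the threshold, so its listing differed between replicates. ND-75, the largest subunit, had no summit within 500 bp in any thresholded list.

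Among the accessory subunits ND-MWFE had the strongest peak of all core members, with a signal value of 2205 and rank 275 in the conservative list. Its replicate values were 579, 823 and 819. The summit lay 152 bp upstream of ND-MWFE and 69 bp from the divergent start of TppII, which encodes tripeptidyl peptidase II. ND-ASHI followed with 1447. It shares its promoter with Fum1, the fumarase of the tricarboxylic acid cycle, which is nearer to the summit by 2 bp, at 260 bp against 262 bp. ND-SGDH had 1233, with replicate values of 266, 471 and 525, and ND-B17 had 1230, with 486, 377 and 389. These accessory subunits of the membrane arm had nearly equal signal in the conservative list, and ND-SGDH was the lower of the pair in replicate 1 and the higher in replicates 2 and 3. ND-42 had 1088, and its divergent partner Cchl, which attaches heme to cytochrome c, is nearer to the summit. ND-AGGG, another accessory subunit of the membrane arm, had 1071, with replicate values of 198, 395 and 461.

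The weaker complex I peaks were less regular between replicates. ND-B17.2 had a signal value of 454 and ND-39 one of 206, and both were bound in all 3 replicates. ND-B14.5B, at 187, and ND-B22, at 141, were bound in replicate 1 and in neither of the others. ND-B16.6, known in mammals as GRIM-19, had 116 and was bound in replicates 1 and 2. Its divergent partner is kdn, citrate synthase. ND-18 had 102, the lowest value among the bound core members, and was in no replicate's thresholded list. In the ranked lists its values were 42.4, 42.3 and 18.6.

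Complex II, succinate dehydrogenase, links the tricarboxylic acid cycle to the chain. SdhA, the flavoprotein that oxidises succinate, had a signal value of 307 in the conservative list and 141, 89.3 and 72.0 in the replicates. SdhC, a membrane anchor, had 412, with replicate values of 130, 105 and 158, and its summit was nearer to the start of its divergent partner Tctp, at 106 bp against 292 bp. SdhD, the other anchor, was bound in replicate 1 with a value of 56.5. SdhB, the iron-sulfur subunit, and Sdhaf3, an assembly factor that the symbol rule takes in, were in no thresholded list.

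Complex III passes electrons to cytochrome c. UQCR-C2, a core protein, had a signal value of 1055, with replicate values of 425, 243 and 401, and UQCR-11 had 945, with 192, 323 and 428. UQCR-14 had 447 and was bound in all 3 replicates. UQCR-6.4 was bound in replicate 3 at 75.6, UQCR-C1 only in the list of replicates 1 and 3, and UQCR-Q was in no thresholded list. Complex III was the exception on gene arrangement, since its 3 bound members have no divergent neighbour.

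In complex IV, COX7B had a signal value of 1218, COX5A 1190 and COX8 1039. The replicate values of COX7B were 423, 399 and 397, those of COX5A 428, 400 and 377, and those of COX8 276, 316 and 378. All of them share their promoter with another gene, COX7B with the exocyst gene Sec3, COX5A with the RNA-binding protein gene glo, whose start is 3 bp nearer to the summit, and COX8 with the proton pump gene VhaM9.7-b. COX7C had 514 and its summit lay 337 bp downstream of its start, inside an intron, and 71 bp from the start of oys. COX6B had 357, with replicate values of 114, 85.5 and 156. COX7A and COX5B, both at 184, were the weakest of complex IV. COX7A was bound in replicates 1 and 3, and COX5B in replicate 3, with its summit 23 bp from the start of IFT52, an intraflagellar transport gene, and 275 bp from its own. COX4 was the complex IV member in no thresholded list.

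In complex V, the rotor subunit ATPsyngamma had the highest signal value, 752, with replicate values of 210, 227 and 319. ATPsynCF6, a peripheral stalk subunit, had 736, with its summit nearer to Sec13, a vesicle coat and nuclear pore gene. ATPsynbeta, the catalytic subunit, had 568, with 166, 191 and 226 in the replicates, and its partner CG11076 was nearer. ATPsyngamma had the highest value of complex V in replicates 2 and 3, and ATPsynO in replicate 1, at 214. The peripheral stalk subunit ATPsynO had 513. ATPsynE and ATPsynF, subunits of the membrane part, had 472 and 231. All 6 were bound in every replicate.

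**Figure D2:**
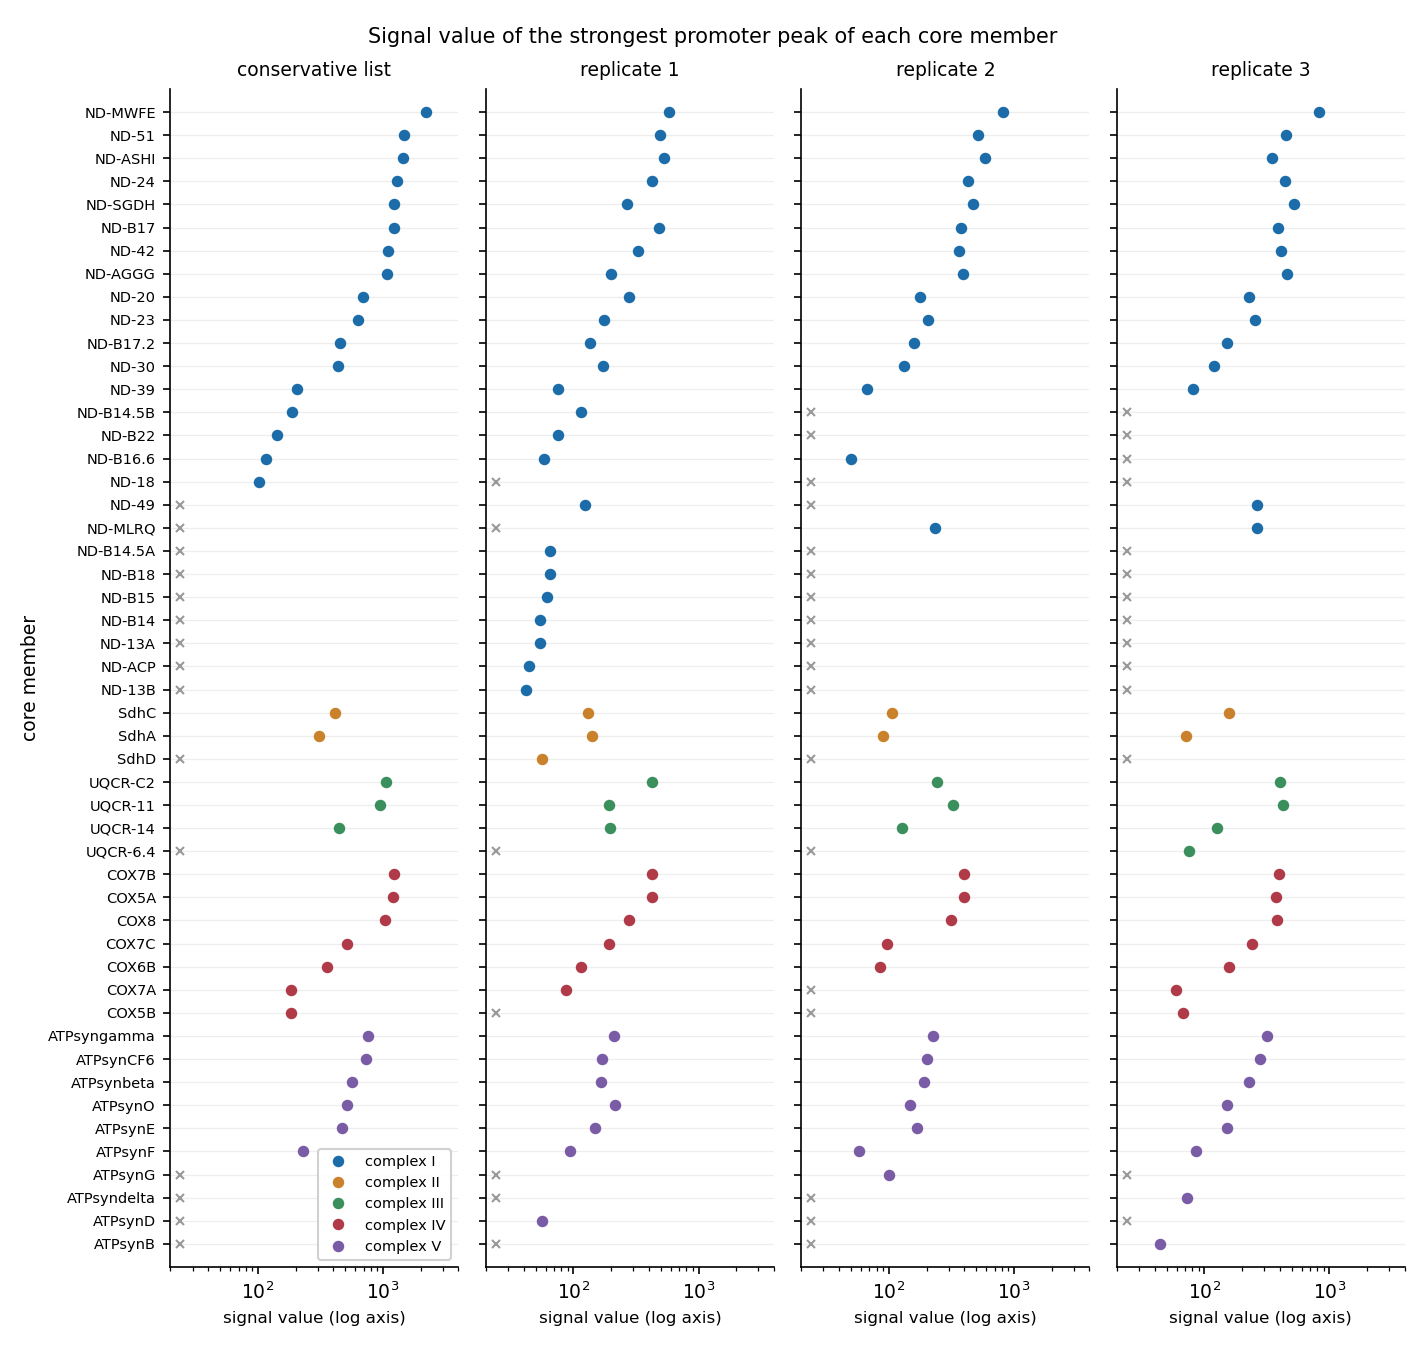
Signal value (log axis) of the strongest peak within 500 bp of each core member in the conservative list and in replicates 1, 2 and 3, coloured by complex. Grey crosses at the left mark members with no such peak in that list, and the 13 members in none of these 4 lists are left out. Members from 2205 down to 206 in complex I, and all bound members of complexes II, III and V, are present in all 4 panels, and most crosses stand beside weaker members.

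ATPsynC, the subunit of the membrane rotor ring, was in no thresholded list, but the ranked lists held strong peaks there. The list of replicates 1 and 2 held a peak of signal value 1139 whose summit lay 180 bp from its start, with an IDR of 1.42e-05. The replicates' ranked lists held peaks there of 498, 239 and 415, each at an IDR of 1e-05. The value of 1139 is above those of all bound members of complex V. In all, 174 peaks of the ranked list of replicates 1 and 2 reach the threshold and are absent from the conservative list, and 2 members, ATPsynC and COX7AL2, have one of them. Per the README files the thresholded lists derive from 1 more file than the ranked ones, and what that file holds was not stated there. With these peaks added, 36 of 63 core members, 7 of 11 in complex V and 4 of 25 paralogs were bound, against 37% of all genes.

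Of the 28 core members not bound in the conservative list, 13 were bound in a single replicate, with low signal values. Replicate 1 alone listed ND-13A, ND-13B, ND-ACP, ND-B14, ND-B14.5A, ND-B15, ND-B18, SdhD and ATPsynD, at 41.9 to 64.9. Replicate 2 alone listed ATPsynG, at 101. Replicate 3 alone listed UQCR-6.4, ATPsynB and ATPsyndelta, at 44.2 to 75.6. Replicate 1 has the longest list of the 3. The members in a pair of replicates were ND-49, given above, and ND-MLRQ, whose mammalian counterpart is regarded as a subunit of complex IV. ND-MLRQ had 233 in replicate 2 and 262 in replicate 3, but no summit within 500 bp in the ranked list of replicate 1.

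Neither the conservative list nor any replicate's thresholded list held ND-15, ND-19, ND-75, ND-B12, ND-B14.7, ND-B8, ND-PDSW, SdhB, Sdhaf3, UQCR-C1, UQCR-Q, COX4 or ATPsynC. Of these 13, ND-B8 was in the pooled thresholded list and UQCR-C1 in that of replicates 1 and 3, which leaves 11 in none of the 7 thresholded lists. With ATPsynC left out, the ranked list of replicate 1 still held a summit within 500 bp of all 12, at signal values of 8.39 to 62.1. The ranked list of replicate 2 held 6 of them and that of replicate 3 held 3, at no more than 30.9. In replicate 1 these values overlapped those of the core members listed there, which began at 41.9. In replicates 2 and 3 they did not, since the listed values began at 50.1 and 44.2. Of the 7882 protein-coding genes in neither the conservative nor a replicate's list, a ranked summit was present at 40.1%, 19.5% and 20.6% in the ranked lists of replicates 1, 2 and 3. The shares of the 12 core members were 100%, 50% and 25%. Those of the 22 paralogs in none of these lists were 27.3%, 27.3% and 18.2%, and 2 of these, COX4L and ATPsynepsilonL, were in the pooled thresholded list. Unlike ATPsynC, COX7AL2 was kept among the 22, and genes with such unlisted peaks were kept among the 7882.

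Among all genes bound in the conservative list, the core members held a middle position. Their median signal value was 568 (range 102 to 2205), against 507 for all bound genes. As a percentile among promoter peaks, the median was 63.1, against 58.9 for all bound genes, and 63.0 ± 4.08 over the replicates (SD, n = 3). Among promoter peaks, 13 core members (37.1%) lay in the top 25% by signal value and 7 (20%) in the bottom 25%, against 32.4% and 17.1% of all bound genes. That SD is the spread of the core median alone. The median of all bound genes was taken in the conservative list only, so the difference has no replicate spread and was not tested. For the 29 core members bound in all 3 replicates, Spearman's rho of signal values across genes was 0.85 between replicates 1 and 2, 0.74 between 1 and 3, and 0.89 between 2 and 3. Over the 3984 genes bound in all 3 it was 0.89, 0.84 and 0.94, and genes are not independent replicates.

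The summits sat just upstream of the starts. Of the 35 bound core members, 30 had the strongest summit upstream (85.7%), against 90.4% of all bound genes. Their median position was 80 bp upstream, against 116 bp for all bound genes. Within 200 bp of the start lay 30 of the 35 (85.7%), against 72.3%. Summits between genes numbered 21, and the other 14 lay in 5′ UTRs, introns or a 3′ UTR of a member or a neighbour. The peaks had a median width of 376 bp, against 400 bp. By the closest summit of each member, those just inside the limit of 500 bp were UQCR-6.4L at 433 bp, ND-30 at 362 bp and SdhC at 292 bp. Just outside it, UQCR-6.4 had its nearest summit 646 bp upstream, ND-75 at 805 bp and COX7CL at 913 bp. No member had its nearest summit between 433 and 646 bp away.

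**Figure D3:**
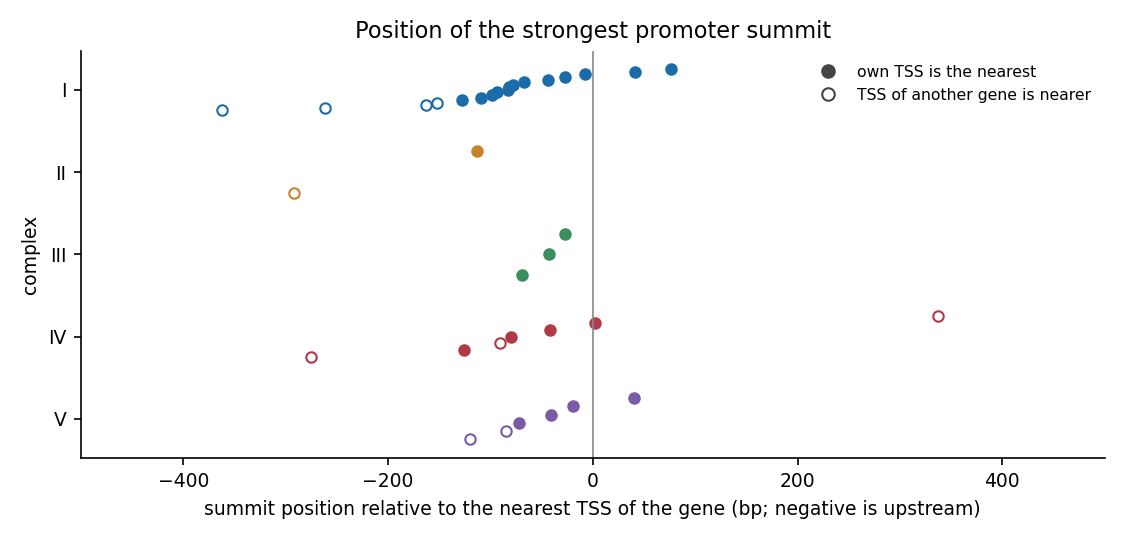
Position of the strongest summit of each bound core member relative to its own nearest TSS (bp, horizontal axis, negative is upstream), by complex. Filled points have their own TSS nearest and open points lie nearer to the TSS of another gene. Most points lie within 200 bp, with a median of 80 bp upstream, and the farthest ones are mostly open.

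Many of these genes are arranged head to head with a neighbour, and that arrangement went with the binding. A protein-coding TSS on the opposite strand lay upstream within 500 bp for 35 of 63 core members (55.6%), against 27.3% of all genes. Of these core members 24 were bound (68.6%), against 66% of all genes with such a neighbour. Of the 28 core members without one, 11 were bound (39.3%), against 25.3% of all such genes. Over the replicates the shares with a neighbour were 68.6% ± 5.71 of core members and 63.3% ± 6.02 of all genes. Without a neighbour they were 46.4% ± 12.9 of core members and 24.4% ± 4.05 of all genes (SD, n = 3 each). With a divergent neighbour, 26, 22 and 24 of 35 core members were bound in replicates 1, 2 and 3. Of all such genes, 2674, 2235 and 2338 of 3815 were. The core share was the higher in each replicate. Both shares come from the same lists, so their SDs do not measure the spread of the difference, which was not tested.

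A peak in such a shared promoter cannot be assigned to a gene by position. Of the 35 bound core members, 10 had their strongest summit nearer to the start of another gene, and 25 to their own. When each summit was given to the nearest start, 27 core members were bound (42.9%), against 27.6% of all genes. Among members with no other start within 500 bp, 10 of 26 were bound (38.5%), against 24.9%. Among the paralogs 4 of 25 had a divergent neighbour (16%), and 2 of these 4 were bound, against 1 of the 21 others.

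**Figure D4:**
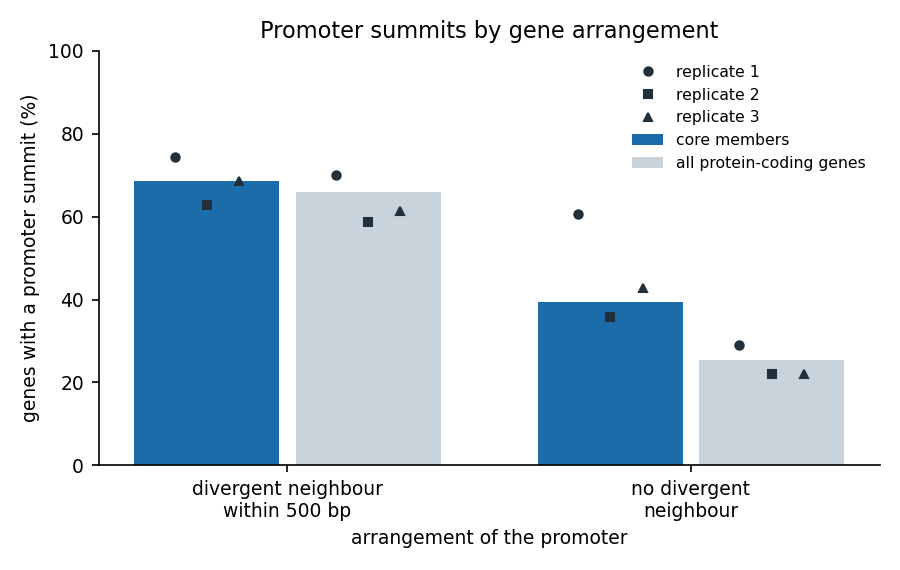
Share of genes (%, vertical axis) with a Row summit within 500 bp of a TSS, for genes with and without a divergent neighbour within 500 bp. Blue bars are core members and grey bars all protein-coding genes in the conservative list, and points are replicates 1, 2 and 3. With a neighbour the bars stand at 68.6% and 66%, and without one at 39.3% and 25.3%.

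Motifs were searched on both strands from 250 bases before to 50 after each start. They were 10 known elements of fly promoters or sites of regulators of respiratory genes. The DRE, which the factor DREF binds, was searched as TATCGATA, motif 1, which M1BP binds, as GGTCACAC, and the core site of BEAF-32 as CGATA. Ohler motifs 6 and 7 were searched as the short strings GTATTTTT and CAGCNNTA, so a match need not be the full motif. The ETS site was searched as CCGGAAG, the E-box as CACGTG, the GAGA element as GAGAG, the TATA box as TATAAA, and the site of NRF-1 and its fly relative Ewg in its palindromic form. CGATA lies within TATCGATA. GGTCACAC was held by 16 of 63 core promoters (25.4%), against 7.52% of all promoters. It was present in 6 of 35 bound core members (17.1%) and 10 of 28 others (35.7%), while 12.6% of all bound genes held it. CAGCNNTA was held by 15 of 63 (23.8%), against 12.6% of all promoters, and by 0 of 25 paralogs. It was present in 12 of 35 bound core members (34.3%) and 3 of 28 others (10.7%), against 14.6% of all bound genes.

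By the conservative list, motif 1 was more frequent in core members that were not bound, and the string CAGCNNTA in those that were. From 100 bases before to 50 after the start, motif 1 was in 17.1% of bound core members and 25% of the others. CAGCNNTA was there in 17.1% and 3.57%. Of the motif 1 holders called not bound, ATPsynD, ND-13A, ND-ACP, ND-B14 and UQCR-6.4 were listed in a single replicate. ATPsynC has the ranked peak described above. The GAGA element was held by 11 core promoters (17.5%), against 30.2% of all. The string TATAAA, on either strand and anywhere in the window, was held by 35 (55.6%), against 45.3%. GTATTTTT, searched for Ohler motif 6, was held by 8 (12.7%), against 7.17%. The DRE was held by 7 (11.1%), against 8.94%, and the BEAF-32 site by 34 (54.0%), against 46.9%. From 100 bases before to 50 after the start TATAAA was in 23.8% of core members and 23.7% of all promoters. In that window the order of the DRE and the BEAF-32 site turned. The DRE was in 4.76% against 7.29%, and the BEAF-32 site in 31.7% against 33.7%. The ETS and NRF-1 sites, bound by factors that drive respiratory genes in mammals, were in 0 of 63 core promoters, and in 1.08% and 0.215% of all promoters. The E-box was in 2 (3.17%), against 4.25%. In the 60 bases on both sides of the bound members' summits, CGATA was present in 17 of 35 (48.6%), against 31.6% of 4541 promoter summits, and CAGCNNTA in 6 of 35 (17.1%), against 6.14%. GGTCACAC was there in 1 of 35 (2.86%), against 3.61%.

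**Figure D5:**
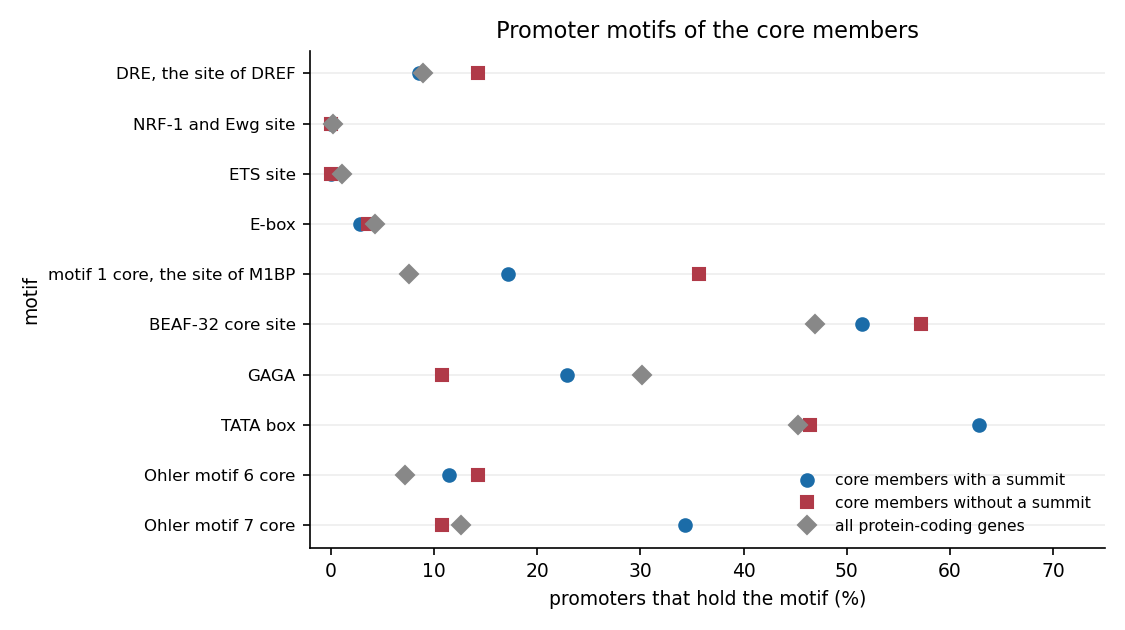
Share of promoters (%, horizontal axis; 250 bases before to 50 after the start) that hold each motif, for core members with a Row summit (n = 35), core members without one (n = 28) and all protein-coding genes (n = 13968). Motif 1 stands at 17.1%, 35.7% and 7.52% in these groups, and the Ohler motif 7 core, searched as CAGCNNTA, at 34.3%, 10.7% and 12.6%.

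The starts of 2 members in no thresholded list are shown because motif 1 was more frequent among core members outside the conservative list. The windows run from 100 bases before to 20 after the start, ATPsynC at chr3R:31219539-31219659 on the minus strand and ND-PDSW at chr2L:3466057-3466177 on the plus strand. ATPsynC is first in the alphabet and has the ranked peak described above. ND-PDSW was chosen after the motif counts were seen, as the first whose window holds GGTCACAC.
ATPsynC: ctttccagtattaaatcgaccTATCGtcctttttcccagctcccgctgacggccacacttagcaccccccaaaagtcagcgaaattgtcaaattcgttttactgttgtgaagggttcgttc
ND-PDSW: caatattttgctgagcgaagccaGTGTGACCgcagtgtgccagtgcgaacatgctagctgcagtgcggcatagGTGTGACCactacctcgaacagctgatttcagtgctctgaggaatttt
ND-PDSW holds GGTCACAC in 2 places, in both as its reverse complement, and ATPsynC holds CGATA. ND-PDSW, an accessory subunit of complex I, is arranged head to head with msl-2, a dosage compensation gene, so a divergent neighbour did not always come with a summit.

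Other genes of the pathway were read in 8 lists, of which 45.5% to 100% of members were bound, beside 36.4% of all genes. Of 7 subunits outside the symbol rule 4 were bound. They were levy and cype of complex IV, with signal values of 1983 and 689, the ATP synthase alpha subunit blw, with 1346, and Cyt-c1 of complex III, with 394. The start of wmd was nearer to the levy summit, and that of Ncoa6 to the cype summit. The Rieske protein gene RFeSP, ox of complex III and sun of complex V were not. Both cytochrome c genes were bound. Cyt-c-d, used in the testis, had 2944, but with its summit 382 bp downstream of its start and nearer to CG31808, and Cyt-c-p, used in the body, had 189. The nearest start thus matters for the stronger of the pair.

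Of 12 assembly factors 6 were bound. CIA30, a complex I assembly factor, had 5964, rank 13 of the conservative list, with CG7601 nearer. It was followed by Ttc19 at 1613, with Acn nearer, Cox17 at 1178 and Coa8 at 635. Ccdc56, Cox11, Scox, Sdhaf3, Surf1 and Uqcc1 were not bound. Of 9 genes of coenzyme Q synthesis 6 were bound, led by Coq4 at 3716, with CG32176 nearer. Coq7 had 1686, Coq8 942 and Coq3 709, and Coq2, Coq5 and Coq6 were not bound. With each summit given to the nearest start, 3 of 12 assembly factors, 3 of 9 coenzyme Q genes and 1 of 2 cytochrome c genes were bound, against 27.6% of all genes.

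Of 16 genes of the tricarboxylic acid cycle and pyruvate dehydrogenase 9 were bound. Idh3g, a subunit of isocitrate dehydrogenase, had 3029, the aconitase mAcon1 1810, the pyruvate dehydrogenase subunit Pdhb 1779 and Fum1 1447. Idh, Mdh2, Ogdh, Pdha, Pdk, ScsbetaA and mAcon2 were not bound. Of 5 carriers and channels 4 were bound, Mpcp1 at 225, Mpcp2 at 165, and the ADP/ATP carriers sesB and Ant2, which share 1 peak of 181, and porin was not.

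Of 11 genes for mitochondrial DNA and its transcription 5 were bound. The strongest were PolG2, the accessory subunit of the mitochondrial DNA polymerase, at 1065, mTerf5 at 887, mTerf3 at 520 and the mitochondrial RNA polymerase PolrMT at 332. The start of CG14339 was nearer to the PolrMT summit, and that of GatC was as near as that of PolG2. PolG1, TFAM, mTTF, mtDNA-helicase, mtTFB1 and mtTFB2 were not. Of 4 regulators of respiratory genes, the nuclear receptor ERR had 2446, with Atg18a nearer, and ewg had 226, while Ets97D and srl were not bound.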

How the data were processed

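Samples were 3 biological replicates of whole row-eGFP embryos, 1 group per the labels. Members and lists were chosen with earlier results of these data known. The deposited files were ranked and thresholded peak lists in assembly dm6. The deposited score of a peak is its scaled IDR, the deposited signal is the enrichment from the authors' caller, and the ranked lists add the deposited −log10 of the global IDR. Column 10, per the narrowPeak layout, places the summit. No source used here gives the aligner or the caller. Per the labels, chromatin was sonicated to 200 to 800 bp. Which replicates made which list was read from intervals copied into the ranked lists. All 35 bound core members had the same signal value in the conservative and the pooled ranked list, so that list's values come from a pool and replicate 3 is not independent of it.

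Genes and 19630 protein-coding TSSs on 7 arms came from Ensembl release 115 (BDGP6.54, the assembly dm6), and sequence from RefSeq. Python 3.11.15, numpy 2.4.6, pandas 2.3.3 and matplotlib 3.10.9 were used, and the calls were tested on simulated peaks. With 1 group there was no test, and errors are SDs over 3 replicates, which include technical spread. Every bound core member, every member in some replicates, the summits nearest the limit and up to 4 of each pathway list are named. One listed assembly factor, Ecsit, had no matching symbol, and Nc73EF was matched as Ogdh. Alternatives were the window, IDR, list, summit assignment and motif window. The lists of single replicates, the paralogs without ND-MNLL and the added ranked peaks were alternatives chosen after seeing the data.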

Additional observations from a re-analysis of the deposited data

How the results depend on the processing

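The core share lay above that of all genes in all 18 settings run on it, and the paralog share below it in all 16 settings run on both. These counts include the main setting and the pairing of replicates 1 and 2, which is the same conservative list. The settings are cuts of the same data, so they are not independent checks. Core members bound ranged from 33 to 37 over the pairings of 2 replicates, and were 27 at an IDR of 0.001 and 46 in the pooled list. Among genes with no other TSS within 500 bp the counts were 10 of 26 core members, 5 of 14 in complex I, 1 of 4 in complex II, 3 of 3 in complex III, 0 of 1 in complex IV, 1 of 4 in complex V and 1 of 21 paralogs, beside 24.9% of all genes. Complex II had 1 bound member in place of 2 with a window of 250 bp and with the nearest TSS only. The shares of all genes there were 30.7% and 27.6%. Complex III ranged from 3 to 5 over the pairings of replicates, with 5 in that of replicates 1 and 3. Complex V had 10 of 11 and the paralogs 5 of 25 in the pooled list, against 42.7% of all genes. At an IDR of 0.05 the paralogs had 5 as well, against 41% of all genes. The median percentile of signal was 68.7 with a window of 1000 bp and 67.2 in replicate 3 alone. From 100 bases before to 50 after the start, the core promoters holding TATCGATA were 3, CACGTG 0, CGATA 20, TATAAA 15 and CAGCNNTA 7. In that window CAGCNNTA was in 11.1% of core members and 7.17% of all promoters, TATAAA in 23.8% and 23.7%, CACGTG in 0% and 2.46%, and TATCGATA in 4.76% and 7.29%, so the order of TATCGATA turned, as did that of CGATA, at 31.7% and 33.7%. The cause of these shifts was not tested. Depth is unknown, so a member without a summit is one without a listed peak, not one shown to be unbound. No paired analysis was possible because the study has 1 group.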
